A study of Mus musculus with 8 samples.

Results

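The comparison describes satellite cells, the muscle stem cells of adult mouse skeletal muscle, taken from mice perfused with paraformaldehyde (PFA) or with phosphate-buffered saline (PBS) before the muscle was dissociated. PFA crosslinks protein and nucleic acid in the tissue, so that the cells of a PFA-perfused mouse are already fixed when the enzymes are added, whereas the cells of a PBS-perfused mouse are alive during dissociation and sorting. Genes were included when at least 2 of the 4 libraries had at least 1 FPKM (fragments per kilobase of transcript, scaled to the mapped fragments of the library). This left 11797 of the 24328 gene symbols in the deposited table, and 12515 symbols were tested over all 8 libraries of the study.

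Each group had 2 libraries, and both groups came from Pax7-nGFP mice, a line in which a nuclear green fluorescent protein marks Pax7-expressing cells, on the C57BL/6 background at 2 months of age. Cells of every group were sorted as Vcam-positive and CD31-, CD45- and Sca-1-negative, and cDNA was made with the SMART-Seq v4 kit, which does not keep the strand. Fixation was not the only difference between the groups. RNA of the fixed cells was purified with a miRNeasy FFPE kit and RNA of the unfixed cells with NucleoSpin RNA XS, and the fixed muscle was digested with a higher Collagenase II concentration. Fixation, RNA kit and digestion therefore cannot be told apart. The other 4 libraries, which entered the fit, were 2 of unperfused wild-type C57BL/6 mice and 2 of wild-type C57BL/6 mice sampled 2.5 days after injury, all aged 2 months. Nothing in the labels says whether 2 libraries of a group came from separate mice, so every p-value reflects library-to-library spread alone, and that spread may be technical.

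Satellite cells lie between the muscle fibre and its basement membrane and rest outside the cell cycle until injury. Pax7 marks the resting cell, Notch signalling keeps it at rest, and Myf5, Myod1 and Myog mark its path to a new fibre. Enzymatic dissociation is a well-known trigger of the immediate early response, in which Fos, Jun and Egr factors are induced without new protein synthesis, and of the heat shock and NF-kB programmes.

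The 4 libraries summed to between 529692 and 582336 FPKM, and their read depth is unknown because the files hold no counts. The ribosomal RNA precursor Rn45s took 9.80% and 19.4% of the FPKM in the PFA-perfused libraries and 0.893% and 6.64% in the PBS-perfused libraries. Over members averaging 10 FPKM or more in the group, the median absolute log2 difference between the 2 libraries of a group was 0.23 for PFA-perfused (6022 genes) and 0.35 for PBS-perfused (4977 genes). Markers of other cell types also differed. Summed over the 12 endothelial markers the level was 70.4 and 65.4 FPKM in the PFA-perfused and 258 and 185.4 in the PBS-perfused libraries, and 10 of the 11 markers that could be compared rose. Tek alone gave 46.55 and 50.9 FPKM of the PFA-perfused sums and 64.6 and 31.2 of the PBS-perfused ones, and without it the sums were 23.8 and 14.48 against 193 and 154. Over the haematopoietic markers the sums were 7.62 and 7.59 against 44.9 and 42.8 FPKM. Only 4 of the 11 with values, Cd68, Csf1r, Lyz2 and Cd74, could be compared, and all 4 were called higher. The others were under 1 FPKM in all 4 libraries. Among them Ptprc was at 0.0269 and 0.0307 against 0.119 and 0.0805 FPKM, and Itgam at 0 in each fixed library against 0.0358 and 0.0366. Tenocyte markers summed to 15.01 and 4.345 against 45.9 and 105.8 FPKM, and 6 of 7 rose. Of 10 fibro-adipogenic markers 7 rose, although their sum was 1075 and 639 against 478 and 579.9 FPKM, and the myofibre markers summed to 97.5 and 104 against 48.1 and 71.6 FPKM. The satellite cell markers, of which 3 rose and 8 fell of 15, summed to 3682 and 3212 against 5026 and 5390 FPKM. The direction of that sum rests on Sdc4, and without it the other 14 markers summed to 3262 and 2973 against 2308 and 2291 FPKM. Both sums without a gene were added after the values were seen. Cdh5, Kdr, Tie1, Flt1, Csf1r, Comp, Kera, Pdgfra, Lum and Mfap5 were under 1 FPKM in both PFA-perfused libraries. They were included through the PBS-perfused libraries alone, so the marker counts of rises are partly set by the inclusion rule. Scx was included through the PFA-perfused libraries alone. Over all members 17.9% were called higher and 48.2% lower in the fit described below. The part of the other cell types in the results below was not tested, and in bulk RNA fewer cells of a type and less RNA per cell cannot be told apart.

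In the limma fit of log2(FPKM + 1), 2116 members (17.9%) were higher in the PBS-perfused libraries and 5688 (48.2%) were lower at an adjusted p under 0.05, and 3993 were not called. Every adjusted p below comes from this fit with Benjamini-Hochberg adjustment over the 12515 tested genes, each log2 fold change is PBS-perfused minus PFA-perfused on the log2(FPKM + 1) scale, which understates the change of low genes, and ± gives its SE with n = 2 libraries a group. The median log2 fold change of all members was -0.56. Scaling each library by a trimmed mean of ratios moved this median to -0.03 and the split to 3496 higher (29.6%) and 3176 lower (26.9%). All 2116 higher calls were kept after scaling, no gene changed direction, and all 3176 scaled lower calls were among the 5688. Both PBS-perfused libraries lay above both PFA-perfused libraries for 2752 members (23.3%) and below them for 6810 (57.7%). The rises reached further than the falls: 218 members had a log2 fold change over 3 and 25 had one under -3. A gene under 1 FPKM in both libraries of 1 group was included through the other group alone. Its direction was therefore set by the inclusion rule, and the counts of lists and markers hold such genes. Each list count below is to be read beside the shares of all members, 17.9% and 48.2%, or 29.6% and 26.9% after scaling.

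**Figure D1:**
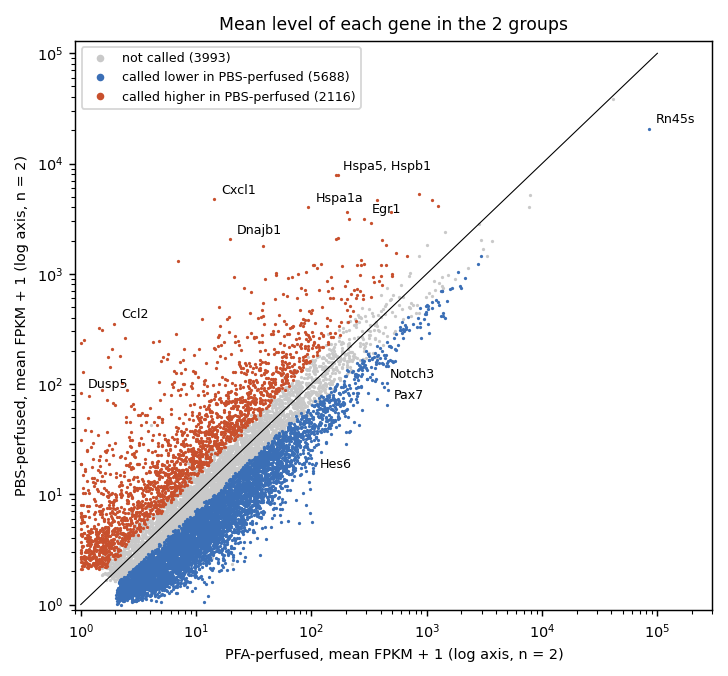
Mean FPKM + 1 of each of the 11797 genes in the PFA-perfused (x) and PBS-perfused (y) libraries on log axes, n = 2 libraries a group, coloured by the call of the unscaled fit; the line marks equal levels. The 2116 higher genes reach further from the line than the 5688 lower genes, with 218 members at a log2 fold change over 3 and 25 under -3.

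**Figure D2:**
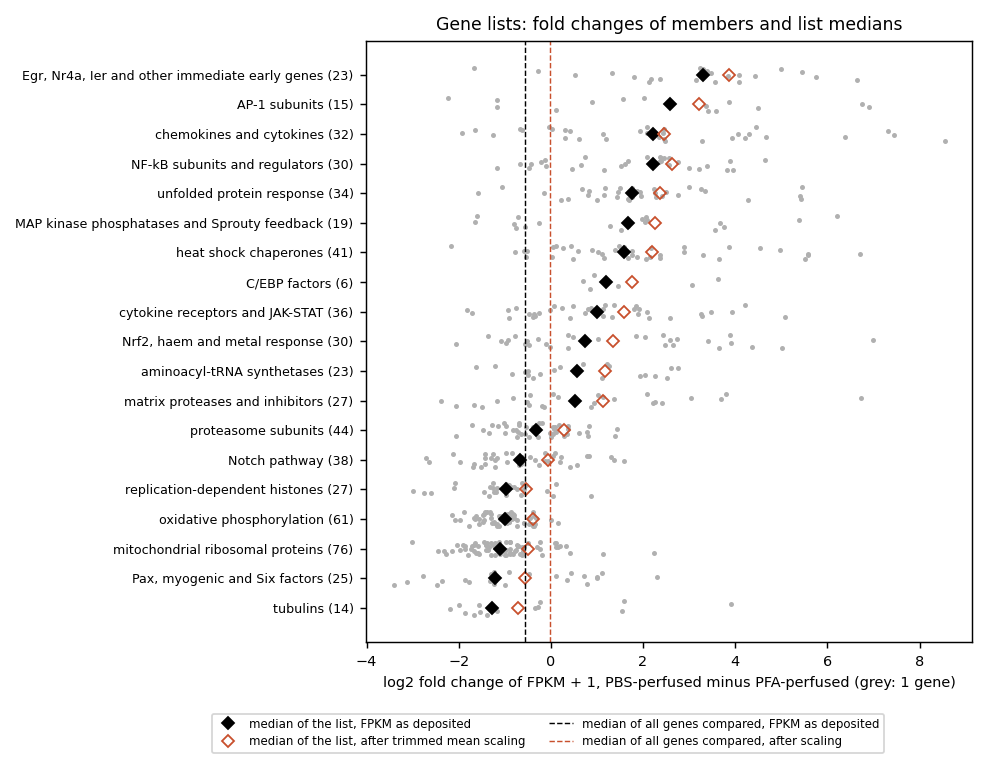
Log2 fold changes (PBS-perfused minus PFA-perfused, FPKM + 1) of the members of 19 gene lists as grey points, with the number of members in parentheses. Filled diamonds are list medians on the FPKM as deposited and open diamonds those after trimmed mean scaling, and the dashed lines are the medians of all 11797 genes, -0.56 and -0.03.

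The AP-1 factors, dimers of Fos, Jun, Atf and Maf proteins that drive the first wave of induced transcription, were among the most raised lists. Of 15 members 11 rose and 3 fell, with a median of 2.58, and after scaling 12 rose and 2 fell with a median of 3.21. Fosl1, a Fos-family subunit, was near the floor in fixed cells, at 0.05601 and 0.0269 FPKM in the PFA-perfused libraries and 101 and 153 in the PBS-perfused libraries (log2 fold change 6.91 ± 0.24, adjusted p = 1.2e-06). Fosl1 was included through the PBS-perfused libraries alone, so its direction was set by the inclusion rule. The unperfused libraries lay between the groups at 24.4 and 18.9 FPKM. Junb, a Jun-family subunit, was at 36.6 and 40.01 FPKM in the PFA-perfused libraries and 740.4 and 1054 in the PBS-perfused libraries (log2 fold change 4.49 ± 0.23, adjusted p = 5.5e-06), with 31.6 and 31.99 FPKM in the unperfused libraries, so its high level was seen in the PBS-perfused libraries and not in the unperfused ones. Fosb stood at 18.6 and 10.6 against 230.3 and 208 FPKM (log2 fold change 3.87 ± 0.32, adjusted p = 3.0e-05) and Mafk, a small Maf partner, at 76.4 and 44.1 against 585 and 665 FPKM (log2 fold change 3.4 ± 0.29, adjusted p = 3.2e-05). Maf, a large Maf factor, went the other way, at 24.2 and 20.5 FPKM in the PFA-perfused libraries and 3.37 and 4.603 in the PBS-perfused libraries (log2 fold change -2.23 ± 0.21, adjusted p = 5.5e-05). Atf7 was also lower, at 62.8 and 64.05 against 24.9 and 30.7 FPKM (-1.17, -0.54 after scaling), and Atf2 overlapped between the groups (33.3 and 28.6 against 44.5 and 24.5 FPKM, adjusted p = 0.783; 0.71, called higher, after scaling).

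Other immediate early genes followed. Of 23 members 20 rose and 1 fell in both fits (medians 3.30 and 3.87). Egr2, a zinc finger factor, was at 1.43 and 1.08 FPKM in the PFA-perfused libraries and 122 and 79.3 in the PBS-perfused libraries (log2 fold change 5.46 ± 0.25, adjusted p = 3.4e-06), and the unperfused libraries, at 116 and 113 FPKM, were as high as the PBS-perfused ones. Ier5, a regulator of heat shock factor activity, was at 0.604 and 0.816 against 135 and 215 FPKM (log2 fold change 6.65 ± 0.25, adjusted p = 1.6e-06). Csrnp1 stood at 0.542 and 0.544 against 56.96 and 118 (5.75), and Trib1, a pseudokinase, at 18.7 and 11.2 against 490.3 and 498 (5.0). Ier5 and Csrnp1 were included through the PBS-perfused libraries alone, so the count of rises is partly set by the inclusion rule. Cyr61, a matrix protein induced by serum and stretch, was at 67.3 and 29.8 FPKM in the PFA-perfused libraries and 991 and 965 in the PBS-perfused libraries (log2 fold change 4.42 ± 0.35, adjusted p = 2.7e-05). Each of these 5 genes was also present in the unperfused libraries, Cyr61 at 241 and 229 and Csrnp1 at 35.1 and 45.2 FPKM. Nr4a1, an orphan nuclear receptor, differed between the PFA-perfused libraries themselves (63.8 and 8.83 FPKM, against 202 and 274), and its log2 fold change of 3.23 was 1.87 without PFA-perfused replicate 2. The single fall was Rgs2, an inhibitor of G-protein signalling, at 194 and 143 FPKM in the PFA-perfused libraries and 39.4 and 67.97 in the PBS-perfused libraries (log2 fold change -1.67 ± 0.29, adjusted p = 0.00105). Srf, the factor through which many of these genes respond to serum, was low and not called (2.11 and 2.05 against 1.12 and 2.05 FPKM, adjusted p = 0.282).

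Negative feedback on MAP kinase signalling rose along with the early genes. Of 19 phosphatases and Sprouty-family members 12 rose and 6 fell, and 12 rose and 1 fell after scaling (medians 1.68 and 2.27). Dusp5, a nuclear ERK phosphatase, had 46.2 and 117 FPKM in the PBS-perfused libraries and was listed at 0 in both fixed ones (adjusted p = 7.3e-06). Dusp2 was at 0.367 and 0.981 against 50.2 and 91.03 FPKM (log2 fold change 5.38 ± 0.29, adjusted p = 6.4e-06) and at only 0.428 and 0.269 in the unperfused libraries. Dusp5 and Dusp2 were included through the PBS-perfused libraries alone, so the count of rises is partly set by the inclusion rule. Dusp10, which acts on JNK and p38, stood at 6.46 and 5.48 against 81.7 and 94.6 (3.68) and was as high in the unperfused libraries (96.7 and 67.6). Errfi1, an inhibitor of the EGF receptor, was at 158 and 47.3 FPKM in the PFA-perfused libraries and 1349 and 1038 in the PBS-perfused libraries (log2 fold change 3.76 ± 0.47, adjusted p = 1.7e-04). The Sprouty adaptors were split. Spry4 rose from 5.96 and 5.75 to 35.6 and 22.4 FPKM (2.09) and Spry2 from 2.65 and 4.25 to 10.2 and 12.99 (1.52), while Spred2 was lower (20.8 and 14.7 against 3.66 and 6.89, -1.61). The unperfused libraries were far above both groups for Spry4 (170 and 240 FPKM) and Spry2 (1768 and 2532), and below both for Spred2 (1.57 and 1.15). Spry1, a marker of returning quiescence, was at 102 and 73.99 FPKM in the PFA-perfused libraries and 58.02 and 41.8 in the PBS-perfused libraries (log2 fold change -0.8 ± 0.27, adjusted p = 0.027); this call did not hold after scaling (-0.17) and was lost without PFA-perfused replicate 1 (-0.58) or PBS-perfused replicate 2 (-0.57).

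Among the Kruppel-like factors, zinc finger proteins that include both early-response and growth-arrest genes, 7 of 12 rose and 4 fell (7 and 2 after scaling). Klf6 was at 78.8 and 99.2 FPKM in the PFA-perfused libraries and 783 and 533 in the PBS-perfused libraries (log2 fold change 2.85 ± 0.28, adjusted p = 6.2e-05). Klf4 was at 12.7 and 8.58 against 73.99 and 84.4 FPKM (log2 fold change 2.8 ± 0.27, adjusted p = 5.7e-05) and Klf9, a glucocorticoid target, at 110.2 and 57.8 against 412 and 359 (2.25). Klf3 and Klf15, a repressor and a metabolic regulator, were higher in fixed cells, at 20.02 and 20.9 against 4.64 and 6.103 (-1.76) and 18.5 and 16.2 against 6.57 and 4.56 FPKM (-1.5), in both fits.

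Chemokines and cytokines, the secreted signals that recruit and instruct immune cells, included 4 of the 15 largest rises on the log2(FPKM + 1) scale, Cxcl1, Ccl2, Cxcl2 and Ccl7. Of 32 members 21 rose (65.6%) and 4 fell (12.5%), beside 17.9% and 48.2% of all members, and 24 rose and 3 fell after scaling. The median was 2.22, and 2.45 after scaling. Cxcl2, Cxcl3, Csf3, Il6, Il33, Cxcl5 and Ccl2 were under 1 FPKM in both PFA-perfused libraries. They were included through the PBS-perfused libraries alone, so the count of rises is partly set by the inclusion rule. Cxcl1, a signal that draws neutrophils, was at 22.5 and 4.14 FPKM in the PFA-perfused libraries and 2377 and 7159 in the PBS-perfused libraries (log2 fold change 8.55 ± 0.68, adjusted p = 2.7e-05), and Ccl2, a signal that draws monocytes, at 0.918 and 0.984 against 262 and 438 FPKM (log2 fold change 7.45 ± 0.27, adjusted p = 1.2e-06). The PBS-perfused libraries were also above the unperfused ones, which had 878 and 848 FPKM of Cxcl1 and 110.2 and 119 of Ccl2. Ccl7 was at 0.7603 and 1.63 against 196 and 164 FPKM (6.39) and Cxcl5 at 0.193 and 0.0525 against 21.5 and 25.5 (4.45). Cytokines were at lower levels. Il6 stood at 0.112 and 0.147 against 12.6 and 35.9 FPKM (log2 fold change 4.31 ± 0.40, adjusted p = 4.8e-05), and the alarmin Il33 at 0.0234 and 0.2698 against 9.91 and 10.03 (3.27). Csf1, the macrophage growth factor, was at 1.599 and 1.31 against 41.3 and 47.5 FPKM (log2 fold change 4.21 ± 0.24, adjusted p = 7.2e-06). Cxcl2, Cxcl3 and the granulocyte growth factor Csf3 were listed at 0 in both PFA-perfused libraries, against 61.8 and 406, 11.8 and 49.02 and 26.4 and 8.99 FPKM. Il15 and Il18, cytokines that act on lymphocytes, and Ctf1 were higher in fixed cells, at 2.68 and 4.47 against 0.381 and 0.481 (-1.65), 13.03 and 11.4 against 5.33 and 3.78 (-1.26) and 41.98 and 33.7 against 9.22 and 8.85 FPKM (-1.94), in both fits. The endothelial and haematopoietic marker sums given above were also higher in the PBS-perfused libraries, and their part in these values was not tested.

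To show what the raised chemokine genes share in sequence, the 250 bases before each gene's start (RefSeq promoter table, GRCm38.p6, 1 entry a symbol, the first listed) were searched on both strands for the NF-kB consensus site. Of the 11797 genes 8825 had an entry. The site was found in 7 of 21 chemokine and cytokine promoters (33.33%), in 9 of 25 promoters of NF-kB subunits and regulators (36.00%), in 771 of the 8825 members (8.74%) and in 1894 of all 27025 promoters (7.01%). All 7 chemokine and cytokine genes with the site rose (median 4.31), and 5 of the 14 without it did (median 0.30). These 7 hold Cxcl2, Cxcl3 and Il6, which were included through the PBS-perfused libraries alone. In the NF-kB list 6 of 9 genes with the site rose (median 2.40) and 10 of 16 without it (median 1.56). Within that list the site did not separate the genes that rose. The members of both lists were chosen by role, and many were known as NF-kB targets, so these shares are a description. The 6 promoters with a site and the largest rises are shown 5′ to 3′ with the site in capitals and up to 20 bases on each side.
Cxcl1 (chr5:90891154-90891204, + strand): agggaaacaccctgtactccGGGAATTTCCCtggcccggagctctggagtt
Cxcl2 (chr5:90903782-90903832, + strand): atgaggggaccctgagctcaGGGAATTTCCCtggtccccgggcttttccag
Cxcl3 (chr5:90786008-90786058, + strand): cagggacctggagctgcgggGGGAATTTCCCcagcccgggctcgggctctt
Il6 (chr5:30013050-30013099, + strand): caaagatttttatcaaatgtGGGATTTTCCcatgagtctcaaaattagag
Csf1 (chr3:107760594-107760643, - strand): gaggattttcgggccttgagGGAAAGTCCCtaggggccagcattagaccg
Tnfaip3 (chr10:19015506-19015555, - strand): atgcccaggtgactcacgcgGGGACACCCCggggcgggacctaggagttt
The first 3, neighbours on chromosome 5, carry the same 11 bases, in which 2 overlapping matches lie. A match is a run of letters and does not show that NF-kB bound there in these cells.

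NF-kB factors are held in the cytoplasm by inhibitor proteins until a kinase complex marks the inhibitors for destruction, and the inhibitors are themselves targets. Of 30 members 20 rose and 2 fell, and 23 rose and 1 fell after scaling (medians 2.21 and 2.62). All 5 subunit genes rose. Nfkb1 was at 37.4 and 36.9 FPKM in the PFA-perfused libraries and 508 and 569.9 in the PBS-perfused libraries (log2 fold change 3.82 ± 0.21, adjusted p = 6.6e-06), Rel at 2.13 and 1.21 against 26.8 and 25.99 (3.38), Relb at 16.2 and 15.2 against 84.2 and 148 (2.75), Nfkb2 at 28.9 and 26.2 against 113 and 198 (2.4) and Rela at 41.2 and 32 against 138 and 178 FPKM (2.08). Among the inhibitors, Nfkbia was at 83.8 and 64.1 FPKM in the PFA-perfused libraries and 526 and 673 in the PBS-perfused libraries (log2 fold change 3.0 ± 0.27, adjusted p = 4.3e-05) and Nfkbie at 3.58 and 3.52 against 33.2 and 50.7 FPKM (log2 fold change 3.21 ± 0.27, adjusted p = 3.1e-05). Nfkbiz, a nuclear cofactor, was at 7.08 and 6.61 against 141 and 271 (4.65), and Birc3, a survival protein, at 4.02 and 3.77 against 76.3 and 66.2 FPKM (3.88). Tnfaip3, a deubiquitinase that ends the response, stood at 4.32 and 0.385 against 48.7 and 34.6 FPKM (log2 fold change 3.95 ± 0.51, adjusted p = 2.0e-04). The kinase subunits were flatter. Ikbkb was at 21.4 and 16.7 against 18.8 and 13.9 FPKM and Ikbkg at 3.05 and 2.82 against 2.37 and 1.36, neither called in either fit (adjusted p = 0.533 and 0.0963), and Chuk was called only after scaling (0.73, then 1.34). Irak1, an upstream kinase, was lower at 29.7 and 35.1 against 13.2 and 14.1 FPKM (-1.18).

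Receptors and the JAK-STAT chain were more often higher than lower in the PBS-perfused libraries. Of 36 members 21 rose (58.3%) and 5 fell (13.9%), beside 17.9% and 48.2% of all members. After scaling 25 rose and 2 fell. The median was 1.00, and 1.58 after scaling. The oncostatin M receptor Osmr was at 9.14 and 20.2 FPKM in the PFA-perfused libraries and 232 and 318 in the PBS-perfused libraries (log2 fold change 4.22 ± 0.34, adjusted p = 2.7e-05), and Il1r1, the interleukin 1 receptor, at 22.9 and 21.4 against 343 and 146 FPKM (log2 fold change 3.28 ± 0.36, adjusted p = 1.0e-04). Tnfrsf12a, the receptor of the cytokine TWEAK, was at 11.9 and 8.52 against 274 and 502 (5.07). All 3 were about as high in the unperfused libraries, at 240 and 259, 300 and 231 and 548 and 218 FPKM, and none of the 3 was called between PBS-perfused and unperfused. Stat3, the main factor of this receptor class, was at 28.5 and 41.96 against 488 and 319.6 FPKM (log2 fold change 3.48 ± 0.28, adjusted p = 2.7e-05), while Stat6 was not called (14.4 and 12.7 against 12.1 and 10.2, adjusted p = 0.341). Of the feedback inhibitors, Socs3 stood at 3.36 and 2.28 against 27.3 and 45.1 FPKM (3.26) and Cish at 0.0225 and 0.151 against 12.2 and 19.9 (3.93). Socs1, at 3.56 and 5.18 against 27.1 and 34.9 (2.58), was under 1 FPKM in the unperfused libraries (0.3697 and 0.602). Tyk2 and Pias3 fell in both fits (-1.83 and -1.72).

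**Figure D3:**
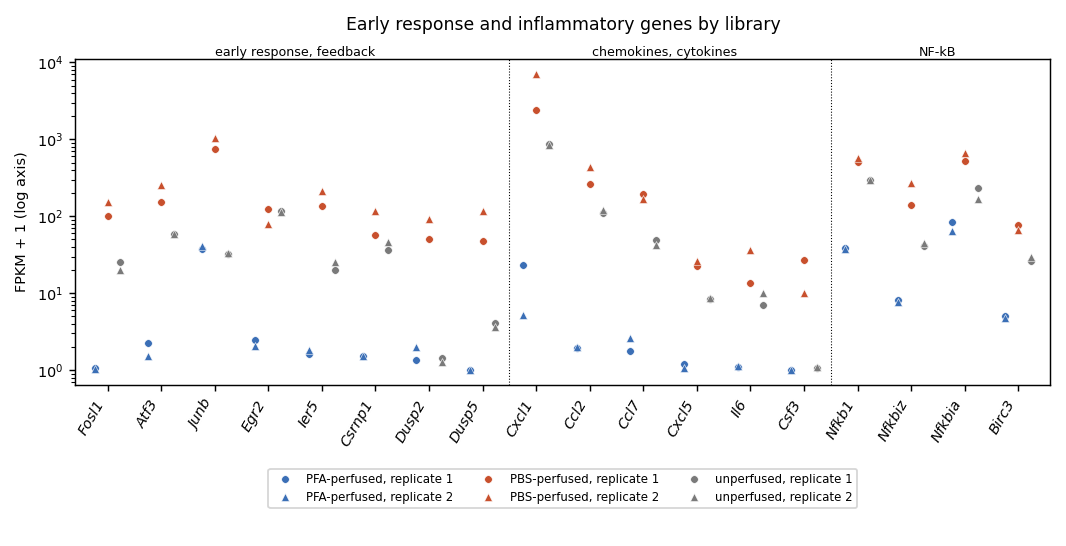
FPKM + 1 on a log axis for 18 early response, chemokine and NF-kB genes, each symbol 1 library, with circles for replicate 1 and triangles for replicate 2 of the PFA-perfused, PBS-perfused and unperfused groups. Every gene shown is higher in both PBS-perfused libraries than in both PFA-perfused ones. For genes under 1 FPKM in both PFA-perfused libraries, such as Fosl1, Ier5 and Dusp5, that direction was set by the inclusion rule. Junb and Dusp2 are low in the unperfused libraries, and Egr2 is as high there as in the PBS-perfused libraries.

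Heat shock proteins are chaperones that fold or hold damaged proteins, induced through Hsf1. Of 41 members 29 rose and 3 fell, and 36 rose and 1 fell after scaling (medians 1.58 and 2.20). The small heat shock protein Hspb1 was at 135 and 187 FPKM in the PFA-perfused libraries and 6415 and 9220 in the PBS-perfused libraries (log2 fold change 5.59 ± 0.36, adjusted p = 1.0e-05), and Hspa1a, the inducible Hsp70, at 58.4 and 128 against 4151 and 3876 FPKM (log2 fold change 5.52 ± 0.52, adjusted p = 5.0e-05). Neither was raised in the unperfused libraries, where as deposited Hspb1 stood below the fixed cells at 40.3 and 80.7 FPKM and Hspa1a at 33.5 and 109. After scaling Hspb1 was higher in the PBS-perfused libraries by 6.22 than in the fixed and by 6.49 than in the unperfused libraries. Hspa1b, at 14.1 and 35.9 against 710.2 and 778 (4.98), is a near-identical copy of Hspa1a, so reads may have been divided between them. The Hsp70 cochaperones followed. Hsph1, the Hsp110 exchange factor, was at 41.9 and 32.2 FPKM in the PFA-perfused libraries and 1933 and 1674 in the PBS-perfused libraries (log2 fold change 5.58 ± 0.29, adjusted p = 6.1e-06), Dnajb1 at 20.96 and 16.1 against 2392 and 1707 (6.7), Dnaja4 at 1.697 and 1.76 against 58.3 and 67.3 (4.54) and Bag3 at 27 and 29.4 against 339 and 536 FPKM (3.87). These had intermediate unperfused levels, with Hsph1 at 252 and 406 and Dnajb1 at 196 and 396 FPKM.

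The other cytosolic and mitochondrial chaperones rose less. Hspa8, the constitutive Hsp70, was at 515 and 467 FPKM in the PFA-perfused libraries and 3794 and 3512 in the PBS-perfused libraries (log2 fold change 2.89 ± 0.31, adjusted p = 8.8e-05), and Hsp90aa1 at 166 and 158 against 1728 and 2382 FPKM (log2 fold change 3.64 ± 0.37, adjusted p = 7.2e-05). Its constitutive partner Hsp90ab1 moved from 520.5 and 550.4 to 1493 and 1620 FPKM (log2 fold change 1.54 ± 0.33, adjusted p = 0.00325). In mitochondria, Hspd1 was at 299 and 233 against 1069 and 1336 (2.18), its cofactor Hspe1 at 9.96 and 9.04 against 46.1 and 61.5 (log2 fold change 2.37 ± 0.22, adjusted p = 5.2e-05) and Hspa9 at 258 and 183 against 727 and 579.6 FPKM (1.58). Of the 8 subunits of the chaperonin CCT, which folds actin and tubulin, 3 rose as deposited and all 8 after scaling, with medians of 0.75 and 1.38. Hspb2, a muscle small heat shock protein, was lower at 40.7 and 64.5 against 12.6 and 9.05 FPKM (log2 fold change -2.16 ± 0.28, adjusted p = 2.1e-04). Hsf1 itself was not called as deposited (42.2 and 27.7 against 33.8 and 36.6 FPKM, log2 fold change 0.04 ± 0.25, adjusted p = 0.9), although scaling gave a called 0.66. Ubiquitin, which marks damaged proteins for destruction, rose with the chaperones, with Ubb going from 944 and 775 to 6729 and 3942 FPKM (2.59).

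The promoter of Hspe1 is shown because it was 1 of only 2 promoters, of 33 heat shock genes with an entry, whose 250 bases held a perfect heat shock element, defined as GAANNTTCNNGAA on either strand, where N is any base. Of all promoters 108 of 27025 (0.40%) held one. Capitals mark 2 overlapping matches in the 72 to 89 bases before the start.
Hspe1 (chr1:55088039-55088096, + strand): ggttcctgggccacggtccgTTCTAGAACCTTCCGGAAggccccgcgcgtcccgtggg
The other is Dnajb6, which was not called as deposited (185 and 123 against 244 and 169.7 FPKM, 0.43) and was called higher after scaling (1.06). Degenerate elements, and sites further than 250 bases from the start, were not searched for.

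The unfolded protein response raises the folding and export capacity of the endoplasmic reticulum through 3 sensors, Ern1, Eif2ak3 and Atf6. Of 34 members 29 rose and 2 fell, and 30 rose and 1 fell after scaling (medians 1.76 and 2.37). Hspa5, the reticulum's Hsp70 known as BiP, was at 203 and 134 FPKM in the PFA-perfused libraries and 11070 and 4565 in the PBS-perfused libraries (log2 fold change 5.42 ± 0.47, adjusted p = 3.5e-05). Its mean was 46.4-fold higher in the PBS-perfused libraries, although their 2 values were far apart. Other chaperones of the reticulum were Hsp90b1, at 73.3 and 63.6 against 428 and 248 (2.24), Pdia6, a disulphide isomerase, at 78.1 and 56.9 against 404 and 257 (2.26), and Dnajb9 at 11.4 and 7.88 against 259 and 159 FPKM (log2 fold change 4.28 ± 0.28, adjusted p = 1.2e-05). Manf, a secreted survival factor, was at 30.1 and 22.99 FPKM in the PFA-perfused libraries and 321 and 209 in the PBS-perfused libraries (log2 fold change 3.25 ± 0.27, adjusted p = 3.2e-05), and Herpud1, a degradation adaptor, at 96.8 and 64.9 against 1124 and 366 FPKM (log2 fold change 3.0 ± 0.46, adjusted p = 5.3e-04).

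Atf4, a factor translated when general translation is slowed, was at 77.5 and 76.9 against 201 and 321 FPKM (log2 fold change 1.7 ± 0.27, adjusted p = 5.9e-04). Of 33 amino acid transport and Atf4 target genes 13 were called higher (39.4%), 7 lower (21.2%) and 13 not called (median 0.16). Over all members 17.9% were higher and 48.2% lower. After scaling 18 genes of the list were higher and 4 lower (median 0.76). Among single genes, the Atf4 target Chac1, which degrades glutathione, was at 0.258 and 0.0355 FPKM in the PFA-perfused libraries and 40.4 and 55.9 in the PBS-perfused libraries (log2 fold change 5.41 ± 0.24, adjusted p = 3.2e-06), Trib3 at 0.304 and 0.2597 against 11.7 and 12.2 (3.34) and Ppp1r15a, which reverses the translational block, at 22.9 and 17.5 against 1085 and 771 FPKM (log2 fold change 5.45 ± 0.31, adjusted p = 7.2e-06). Xbp1 stood at 77.01 and 51.6 against 396 and 244 (2.28), Atf6 at 35.8 and 32.98 against 141 and 130 (1.95) and Ern1 at 0.8796 and 0.569 against 2.94 and 4.99 FPKM (1.5). The sensor Eif2ak3 was not called (4.12 and 3.77 against 4.16 and 2.81 FPKM, adjusted p = 0.554), and Edem2, which takes part in degradation, fell in both fits (12.1 and 14.47 against 3.65 and 3.85, -1.58).

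The ER stress element, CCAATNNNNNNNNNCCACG on either strand with N any base, is known to bind the Atf6 and NF-Y factors. It was found within 250 bases of the start in 8 of 28 unfolded protein response promoters (28.57%), against 33 of all 27025 promoters (0.12%). All 8 genes with the element rose (median 1.96), as did 15 of the 20 without it (median 1.73), so within the list the element did not separate the genes that rose. The 8 stretches are shown, in order of fold change, to let the element be read in each; capitals run from the first to the last base of the element.
Hspa5 (chr2:34772005-34772063, + strand): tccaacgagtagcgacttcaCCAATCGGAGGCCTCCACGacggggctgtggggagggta
Dnajc3 (chr14:118937807-118937865, + strand): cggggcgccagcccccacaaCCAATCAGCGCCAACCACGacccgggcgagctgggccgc
Pdia6 (chr12:17266471-17266529, + strand): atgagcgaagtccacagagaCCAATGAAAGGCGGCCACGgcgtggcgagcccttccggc
Hsp90b1 (chr10:86705618-86705676, - strand): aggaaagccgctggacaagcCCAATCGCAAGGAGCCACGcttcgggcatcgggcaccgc
Creld2 (chr15:88819500-88819558, + strand): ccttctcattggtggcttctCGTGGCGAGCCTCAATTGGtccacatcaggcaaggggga
Calr (chr8:84847055-84847113, - strand): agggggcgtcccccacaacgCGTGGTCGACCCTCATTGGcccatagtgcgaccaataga
Canx (chr11:50325780-50325838, - strand): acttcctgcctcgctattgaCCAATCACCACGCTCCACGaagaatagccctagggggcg
Syvn1 (chr19:6046512-6046570, + strand): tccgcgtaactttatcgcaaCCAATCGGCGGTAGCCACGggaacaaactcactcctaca
Creld2 and Calr carry it as the reverse complement, and Hsp90b1 holds a second one that is not shown. Calr and Canx, the lectin chaperones, rose from 118 and 85.6 to 206 and 245 FPKM (1.16) and from 32.6 and 30.6 to 87.6 and 47.5 (1.01); without PFA-perfused replicate 2 they were at 0.93 and 0.96 and not called, and Canx was at 0.57 without PBS-perfused replicate 1. The smallest rise of the 8 was that of the ubiquitin ligase Syvn1, from 8.796 and 11.8 to 16.3 and 17.4 FPKM (log2 fold change 0.67 ± 0.23, adjusted p = 0.0297), a call that was lost without PFA-perfused replicate 1 (0.47), PBS-perfused replicate 1 (0.71) or PBS-perfused replicate 2 (0.63).

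**Figure D4:**
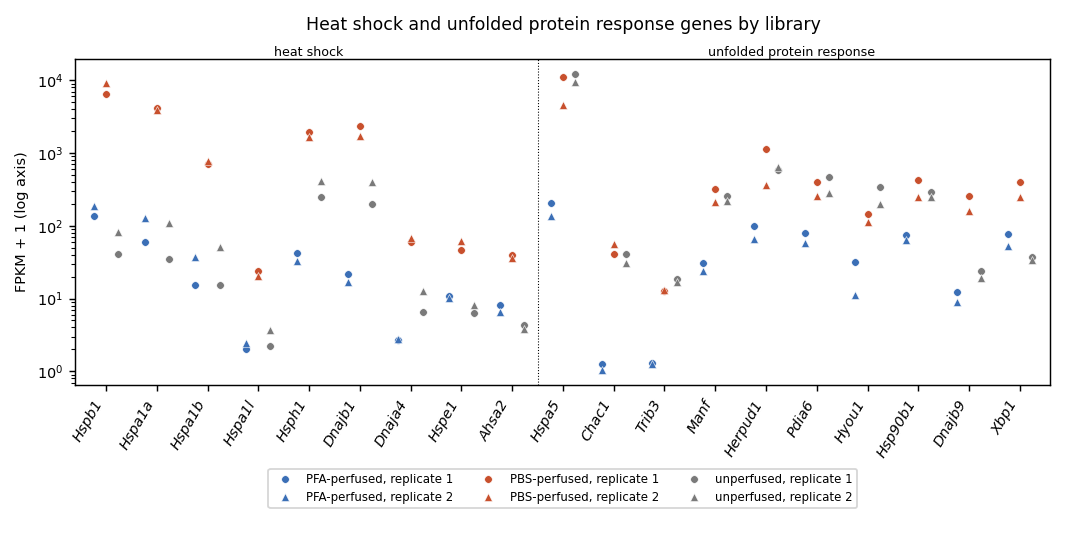
FPKM + 1 on a log axis for 9 heat shock genes and 10 unfolded protein response genes in each PFA-perfused, PBS-perfused and unperfused library (circles replicate 1, triangles replicate 2). Hspb1, Hspa1a and Hspe1 are high only in the PBS-perfused libraries of the 3 groups shown, whereas Hspa5, Chac1, Trib3 and Manf are high in both the PBS-perfused and the unperfused libraries.

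The unperfused wild-type libraries, also unfixed, show that the chaperone classes stand differently in the 2 kinds of unfixed cell. The contrast of PBS-perfused with unperfused uses the same PBS-perfused libraries as the main contrast, and the mice also differ in genotype, so its values are placed beside the others and not counted as further support. Over all members 38.3% were higher in the PBS-perfused than in the unperfused libraries and 12.0% lower, which became 24.1% and 23.5% after scaling. Of the 41 heat shock genes 28 were higher and 2 lower, with a median of 1.40 (21 and 4, median 0.83, after scaling). Of the 34 unfolded protein response genes 9 were higher and none lower, with a median of 0.28 (8 and 10, median -0.24, after scaling). Hspb1 differed between the 2 unfixed groups by 7.05 ± 0.36, adjusted p = 2.7e-06, and Hspe1 by 2.92 ± 0.22, adjusted p = 1.5e-05. Hspa5, at 12370 and 9383 FPKM in the unperfused libraries, differed by -0.60 ± 0.47, adjusted p = 0.31, and Chac1, at 40.5 and 30.2 FPKM, by 0.43 ± 0.24, adjusted p = 0.164. After scaling Hspa5 was at -1.17 and called lower in the PBS-perfused than in the unperfused libraries, and Chac1 was at -0.12 and not called. Dnajb9 and Xbp1 were exceptions within the second list, at 22.9 and 18.3 and 36.5 and 32.4 FPKM in the unperfused libraries and higher in the PBS-perfused ones by 3.25 ± 0.28, adjusted p = 2.9e-05 and 3.14 ± 0.29, adjusted p = 3.8e-05 respectively.

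Oxidative and metal stress genes moved partly. Nrf2 (Nfe2l2) induces glutathione and thioredoxin enzymes, and metallothioneins bind zinc. Of 30 members 15 rose and 7 fell, and 17 rose and 2 fell after scaling (medians 0.75 and 1.35). The metallothionein Mt1 was at 169 and 251 against 3377 and 2855 FPKM (3.91). Its neighbour in function Mt2 was at 318 and 428 against 4435 and 4828 FPKM (3.65). Txnrd1, thioredoxin reductase, was at 19.2 and 17.4 FPKM in the PFA-perfused libraries and 318 and 489.5 in the PBS-perfused libraries (log2 fold change 4.36 ± 0.27, adjusted p = 8.7e-06), Srxn1, sulfiredoxin, at 5.36 and 4.03 against 146 and 228 (5.02) and Gclm, which limits glutathione synthesis, at 9.73 and 9.09 against 84.9 and 144 FPKM (3.42). Hmox1, haem oxygenase, was at 6.29 and 5.51 against 344 and 2242 FPKM (log2 fold change 6.99 ± 0.82, adjusted p = 1.3e-04), so its 2 PBS-perfused libraries were far apart while both exceeded the fixed ones. Keap1, the inhibitor of Nrf2, was lower at 45.2 and 41.9 against 8.52 and 11.2 (-2.05), as was catalase (Cat, 34.4 and 29.6 against 11.5 and 11.9, -1.37). Nqo1, a common Nrf2 readout, was low and not called (3.37 and 2.14 against 1.69 and 1.64 FPKM, adjusted p = 0.0826). Slc39a14, a zinc and iron importer, stood at 17 and 9.82 against 245 and 174 FPKM (log2 fold change 3.89 ± 0.29, adjusted p = 2.1e-05).

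Growth arrest and damage genes split into a raised and a lowered set. Of 28 p53 list members 15 rose and 8 fell, and 16 rose and 4 fell after scaling (medians 0.99 and 1.27). Trp53 itself was not called (60.2 and 41.97 against 41.7 and 54.9 FPKM, adjusted p = 0.867). Cdkn1a, the Cdk inhibitor p21, was at 21.2 and 36.6 FPKM in the PFA-perfused libraries and 878 and 496 in the PBS-perfused libraries (log2 fold change 4.52 ± 0.35, adjusted p = 2.3e-05), and Gadd45b, a stress kinase activator, at 2.86 and 8.51 against 165 and 402 FPKM (log2 fold change 5.42 ± 0.48, adjusted p = 3.9e-05). Fas, a death receptor, was at 5.46 and 3.79 against 188 and 147 (4.91), and Plk3 at 6.37 and 4.37 against 96.3 and 90.3 FPKM (3.91). Sesn1 was higher in fixed cells, at 91.5 and 61.2 FPKM in the PFA-perfused libraries and 17.9 and 18.2 in the PBS-perfused libraries (log2 fold change -2.0 ± 0.24, adjusted p = 1.5e-04), whereas its relative Sesn2, an Atf4 target, rose from 0.202 and 0.397 to 8.32 and 13.2 FPKM (3.15). The p53 targets Phlda3, Ei24 and Rrm2b also fell in both fits (-1.2, -1.46 and -1.08).

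As deposited, the lineage transcription factors, a list of Pax, myogenic and related genes, were more often lower than higher in the PBS-perfused libraries, as were all members. Of 25 members 5 rose (20%) and 15 fell (60%), shares near the 17.9% and 48.2% of all members, and 8 rose and 10 fell after scaling. The medians, -1.21 and -0.57 after scaling, lay below those of all members, -0.56 and -0.03. The values below are those of single genes. Pax7 was at 328 and 567 FPKM in the PFA-perfused libraries and 48.3 and 79.6 in the PBS-perfused libraries (log2 fold change -2.78 ± 0.31, adjusted p = 1.1e-04), and its unperfused level was 19.8 and 20.4 FPKM. Pax3, its paralogue, was at 17.8 and 12.4 against 6.76 and 7.15 FPKM (log2 fold change -1.0 ± 0.27, adjusted p = 0.00988), not called after scaling (-0.41) nor without PFA-perfused replicate 1 (-0.75). Myf5 was at 311 and 229 against 142 and 93.05 FPKM (log2 fold change -1.21 ± 0.38, adjusted p = 0.0202), a call lost after scaling (-0.57), without PFA-perfused replicate 1 (-0.99) and without PBS-perfused replicate 2 (-0.90), and 1261 and 2598 FPKM in the unperfused libraries exceeded both groups. Of Myf5, Myf6, Myod1 and Myog, Myod1 alone rose in both fits, at 150.1 and 150.4 FPKM in the PFA-perfused libraries and 703 and 794 in the PBS-perfused libraries (log2 fold change 2.31 ± 0.26, adjusted p = 1.1e-04). Myog and Myf6 fell in both fits. Myog was at 15.8 and 61.02 against 0.595 and 7.53 FPKM (log2 fold change -3.13 ± 0.75, adjusted p = 0.00579), with the 2 libraries of each group far apart. Myf6 was at 2.82 and 1.89 against 0.531 and 0.308 FPKM (-1.23). Dbx1 and Sox8, homeobox and Sox factors, were low in all unfixed libraries shown here. Dbx1 was at 12.2 and 11.1 against 0.132 and 0.261 FPKM (log2 fold change -3.41 ± 0.17, adjusted p = 4.9e-06), with 0.04602 and 0.339 in the unperfused libraries, and Sox8 at 8.8 and 13.6 against 0.683 and 2.21 (-2.36), with 0.674 and 0.768. Six5 was at 7.13 and 8.26 against 0.259 and 0.913 FPKM (-2.48), and Bhlhe41, a repressor of Myod1 activity, at 9.38 and 13.6 against 1.53 and 3.49 (-1.87), although the unperfused libraries had 81.5 and 152.

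Surface and quiescence genes went in both directions. Of 39 members 6 rose (15.4%) and 16 fell (41.0%), shares near those of all members, and 14 rose and 11 fell after scaling (medians -0.53 and 0.09). Vcam1, the protein used in the sort, was at 128 and 84.3 against 329 and 389.6 FPKM (1.77). The heparan sulphate proteoglycan Sdc4 was at 419.5 and 239 FPKM in the PFA-perfused libraries and 2718 and 3099 in the PBS-perfused libraries (log2 fold change 3.19 ± 0.40, adjusted p = 1.7e-04), while Cdh15, M-cadherin, was at 198 and 146 against 39.02 and 56.9 FPKM (log2 fold change -1.83 ± 0.30, adjusted p = 7.5e-04). Cd34 was lower at 181 and 128 against 65.96 and 48.7 (-1.41), as was apolipoprotein E (Apoe, 592 and 416 against 196 and 127, -1.64). Of the transcription factors linked to quiescence, Foxo1 was at 59.3 and 58.03 FPKM in the PFA-perfused libraries and 13.6 and 22.1 in the PBS-perfused libraries (log2 fold change -1.7 ± 0.25, adjusted p = 4.0e-04) and Nfix at 85.3 and 63.1 against 13.6 and 24.3 FPKM (-1.95). The calcitonin receptor Calcr was not called (95.7 and 44.7 against 53.1 and 44.1 FPKM, adjusted p = 0.289).

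In the Notch pathway list 4 of 38 members rose and 19 fell, and 8 rose and 13 fell after scaling (medians -0.68 and -0.06). These shares, 10.5% higher and 50% lower, and both medians were near those of all members (17.9%, 48.2%, -0.56 and -0.03), so the list as a whole did not stand apart and the values below are those of single genes. Of the receptors, Notch3 was at 433 and 386 FPKM in the PFA-perfused libraries and 61.7 and 140.1 in the PBS-perfused libraries (log2 fold change -2.12 ± 0.34, adjusted p = 6.9e-04). Notch1 was at 61.2 and 82.95 against 16.96 and 38.4 FPKM and Notch2 at 20.6 and 31.2 against 4.902 and 10.5, with log2 fold changes of -1.44 and -1.68 that were not called after scaling (-0.81 and -1.07), and Notch1 was at -0.87 without PBS-perfused replicate 1. Of the gamma-secretase genes, whose protease frees the Notch intracellular domain, Aph1a was lower at 25.5 and 26.96 against 4.06 and 8.37 FPKM (log2 fold change -1.98 ± 0.29, adjusted p = 3.8e-04) and Psen2 at 28.8 and 26.5 against 9.76 and 8.35 (-1.51). Hes6, a relative of Hes1 that counters it, was at 97.3 and 105 FPKM in the PFA-perfused libraries and 13.2 and 16.1 in the PBS-perfused libraries (log2 fold change -2.72 ± 0.21, adjusted p = 2.2e-05). Among the targets, Heyl was at 450.4 and 375 against 178 and 127 FPKM (log2 fold change -1.44 ± 0.26, adjusted p = 0.00128). Hes1 and Hey1 were at 64.9 and 51.9 against 29.3 and 34.3 and 70.5 and 52.8 against 43.2 and 34.2 FPKM (-0.85 and -0.65), and neither call held after scaling (-0.23 and -0.03); that of Hey1 was also lost without PFA-perfused replicate 1 (-0.45) and without PBS-perfused replicate 2 (-0.49). Both were far lower in the unperfused libraries, at 0.341 and 0.666 and 5.499 and 7.77 FPKM. Dtx4, a ubiquitin ligase of the pathway, was at 109 and 95.5 against 20.9 and 11.6 FPKM (-2.64).

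**Figure D5:**
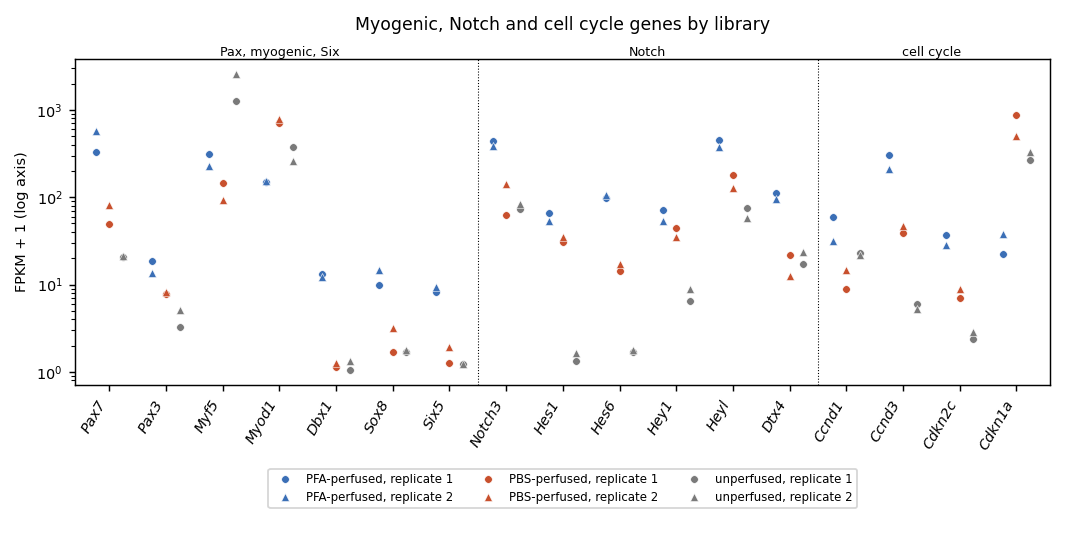
FPKM + 1 on a log axis for 17 lineage, Notch and cell cycle genes in each PFA-perfused, PBS-perfused and unperfused library (circles replicate 1, triangles replicate 2). Pax7, Dbx1, Notch3, Hes6 and Ccnd3 are higher in both PFA-perfused libraries, and Myod1 and Cdkn1a in both PBS-perfused libraries; the calls of Pax3, Myf5, Hes1 and Hey1 were lost after trimmed mean scaling.

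The list of D cyclins, Cdk inhibitors and E2f-Rb genes holds both drivers and brakes of the cell cycle. Of 22 members 2 rose (9.1%) and 10 fell (45.5%), and 4 rose and 7 fell after scaling (medians -0.48 and -0.01), with the share of falls and the medians near those of all members. Ccnd3, the D cyclin of differentiating muscle, was at 306 and 208 FPKM in the PFA-perfused libraries and 37.6 and 45.6 in the PBS-perfused libraries (log2 fold change -2.58 ± 0.24, adjusted p = 4.8e-05), Ccnd1 at 58.5 and 30.2 against 7.92 and 13.8 (-1.91) and their kinase Cdk4 at 218 and 166 against 63.8 and 64.9 FPKM (-1.55). The inhibitor Cdkn2c was at 35.6 and 27.2 against 5.97 and 7.96 (log2 fold change -2.02 ± 0.23, adjusted p = 1.1e-04), and the Rb relative Rbl2 at 14.8 and 14.8 against 4.62 and 3.27 FPKM (-1.69). With p21, the D cyclin Ccnd2 was the other rise (0.406 and 0.295 against 4.84 and 2.88, 1.82). Of 25 replication and mitosis genes 3 rose and 5 fell (8 and 1 after scaling), at summed levels of 121 and 137 FPKM against 157.5 and 114.

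Matrix proteases and their inhibitors were more often higher in the PBS-perfused libraries. Of 27 proteases and inhibitors 13 rose and 6 fell, and 16 rose and 3 fell after scaling (medians 0.53 and 1.12). Plaur, the urokinase receptor, was at 1.46 and 1.42 FPKM in the PFA-perfused libraries and 309 and 214 in the PBS-perfused libraries (log2 fold change 6.73 ± 0.27, adjusted p = 2.1e-06). Timp3 was at 63.7 and 38.3 against 491 and 347 (3.04), Timp2 the reverse at 244 and 216 against 74.1 and 88.3 (-1.5) and the aggrecanase Adamts4 at 6.21 and 7.17 against 90.03 and 107 FPKM (3.69). Mmp2, the main gelatinase, was not called (334 and 304 against 223 and 240.4, adjusted p = 0.115). Of the EGF family, Hbegf, a membrane-anchored ligand, was at 0.95 and 0.858 FPKM in the PFA-perfused libraries and 69.9 and 63.03 in the PBS-perfused libraries (log2 fold change 5.15 ± 0.18, adjusted p = 1.2e-06). The receptor Fgfr4 went down, from 324 and 296 to 74.2 and 88.1 FPKM (log2 fold change -1.93 ± 0.21, adjusted p = 8.9e-05), while Met, the receptor for hepatocyte growth factor, rose from 35.1 and 36.4 to 83.98 and 83.1 (1.2).

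All 6 genes listed under C/EBP factors, Cebpz and Ddit3 among them, rose in both fits (medians 1.20 and 1.76). Over all members 17.9% rose, and 29.6% after scaling. Cebpd, induced in the acute phase response, was at 104 and 68.9 FPKM in the PFA-perfused libraries and 742 and 686 in the PBS-perfused libraries (log2 fold change 3.06 ± 0.26, adjusted p = 3.2e-05), and with 4.48 and 6.64 FPKM in the unperfused libraries it was lower there than in either perfused group. Of the clock genes 8 of 21 rose (38.1%) and 7 fell (33.3%), beside 17.9% and 48.2% of all members, and 12 rose and 6 fell after scaling. The D-box activators Dbp and Tef were lower in the PBS-perfused libraries (36.5 and 28.3 against 4.94 and 9.72, -2.05, and 21.04 and 21.1 against 5.63 and 7.26, -1.57), and their repressor Nfil3 was at 4.26 and 3.87 against 42.4 and 45.8 FPKM (log2 fold change 3.15 ± 0.23, adjusted p = 2.1e-05). Per3 fell (20.9 and 17.7 against 3.61 and 4.46, -2.01) and Cry1 rose (4.71 and 4.61 against 17.3 and 27.7, 2.02), while Clock itself was not called (40.4 and 41.3 against 37.6 and 27.5 FPKM, adjusted p = 0.204). The time of day at which the mice were perfused was not given in the sources used here.

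Zfp36, which destroys AU-rich messages such as those of cytokines, was at 15.7 and 13.2 FPKM in the PFA-perfused libraries and 207 and 328 in the PBS-perfused libraries (log2 fold change 4.09 ± 0.33, adjusted p = 2.8e-05). Of the 39 mRNA decay genes 6 rose (15.4%) and 12 fell (30.8%), beside 17.9% and 48.2% of all members, and 18 rose and 4 fell after scaling. Aminoacyl-tRNA synthetases, several of them Atf4 targets, were also divided, with 9 of 23 called higher and 3 lower (14 and 1 after scaling; medians 0.57 and 1.18). Cars was at 19.2 and 20.9 FPKM in the PFA-perfused libraries and 127 and 126 in the PBS-perfused libraries (log2 fold change 2.6 ± 0.21, adjusted p = 3.0e-05) and Aars at 26.8 and 19.96 against 153 and 126 FPKM (2.53).

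Mitochondrial housekeeping lists lay on the lower side. None of 61 oxidative phosphorylation genes rose and 45 fell, with a median of -1.0, and after scaling 2 rose and 21 fell (median -0.38). Of 76 mitochondrial ribosomal proteins 2 rose and 55 fell, and 8 rose and 33 fell after scaling (medians -1.11 and -0.49). Both lists therefore lay below the median of all members in either fit. Proteasome genes did not: 5 of 44 rose and 12 fell, and 17 rose and 5 fell after scaling (medians -0.33 and 0.29). Of 27 replication-dependent histones 1 rose (3.7%) and 20 fell (74.1%), beside 17.9% and 48.2% of all members, and 2 rose and 10 fell after scaling. Hist1h4d was at 48.2 and 56.4 FPKM in the PFA-perfused libraries and 4.89 and 9.39 in the PBS-perfused libraries (log2 fold change -2.76 ± 0.34, adjusted p = 1.6e-04) and Hist2h2be at 11.3 and 10.9 against 0.5001 and 0.542 FPKM (-3.0), with their near-identical copies making the assignment of reads uncertain. Of 14 tubulins 3 were called higher (21.4%) and 8 lower (57.1%), shares near those of all members, and 3 and 6 after scaling. Their median was -1.28, and -0.71 after scaling. The values below are those of single genes. Tubb6 was at 16.9 and 19.8 FPKM in the PFA-perfused libraries and 331 and 255 in the PBS-perfused libraries (log2 fold change 3.91 ± 0.27, adjusted p = 1.4e-05), whereas Tubb5 was at 129 and 141 against 33.5 and 38.99 (log2 fold change -1.87 ± 0.23, adjusted p = 1.5e-04) and the centrosomal Tubg1 at 14.54 and 13.6 against 2.35 and 2.23 FPKM (-2.19).

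The largest falls, among genes averaging 10 FPKM or more in fixed cells and no overlap between libraries, were smaller than the largest rises. Bmyc, a short relative of Myc, was at 81.8 and 71.7 FPKM in the PFA-perfused libraries and 4.62 and 4.35 in the PBS-perfused libraries (log2 fold change -3.82 ± 0.18, adjusted p = 4.6e-06), and its annotation overlaps a noncoding gene on the other strand. Cxxc5, a CpG-binding regulator of Wnt signalling, was at 112 and 78.6 against 4.68 and 6.82 FPKM (log2 fold change -3.83 ± 0.26, adjusted p = 1.4e-05), and Skp2, the ubiquitin ligase subunit that removes Cdk inhibitors, at 21.7 and 21.4 against 1.11 and 1.86 (log2 fold change -3.2 ± 0.27, adjusted p = 3.2e-05). Each also overlaps another annotated gene, and since the library kit keeps no strand and the counting strand is not given in the sources used here, reads of such pairs cannot be told apart. Mgl2, a macrophage lectin, was at 12.4 and 9.199 against 0.0591 and 0.063 FPKM (-3.46), although the 4 haematopoietic markers compared were higher in the PBS-perfused libraries. Tmem246, Commd5 and Mblac2 fell by more than 3 on the log2 scale as well (-3.45, -3.31 and -3.38). In the unperfused libraries these genes were also low, at 1.39 and 1.43 FPKM for Bmyc, 3.48 and 4.695 for Cxxc5 and 1.94 and 0.775 for Skp2. At the other end, Ptx3, an acute phase pattern receptor, was at 0.128 and 0 FPKM in the PFA-perfused libraries and 234 and 269 in the PBS-perfused libraries (log2 fold change 7.89 ± 0.25, adjusted p = 8.5e-07), the cell adhesion molecule Icam1 at 0.451 and 0.591 against 255 and 362 (7.65) and Gch1, the first enzyme of tetrahydrobiopterin synthesis, at 0.706 and 0.8897 against 105 and 178 FPKM (log2 fold change 6.26 ± 0.30, adjusted p = 4.6e-06). Ptx3 overlaps Veph1 on the opposite strand.

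Transcript properties moved with the fold change. GENCODE M21 gave a longest transcript by symbol for 11373 of the 11797 members (96.4%). In 5 bins of GC content with about equal numbers of genes, the median log2 fold change went from -0.30 in the lowest bin (29.63% to 43.88% GC) to -0.84 in the highest (55.45% to 81.48%), and after scaling from 0.24 to -0.32. The share of genes called lower went from 39.1% to 59.1% over the same bins. By transcript length, the shortest of 5 bins (52 to 1862 bases) had a median of -0.84 and the bin of 3868 to 5244 bases one of -0.38, or -0.31 and 0.15 after scaling. Small nucleolar RNA entries went against the rest, with 61.0% of 77 called higher (median 1.13), and 65.2% of 115 antisense entries were called lower (median -0.88). The part of GC content and length in the results above was not tested.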

How the data were processed

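The values are FPKM per gene symbol in 1 table deposited by the authors for all 8 libraries. Per the submitters' processing notes, STAR 2.5.3a, StringTie 1.3.3, R 3.4.1 and the mouse build mm9 were used; annotation and counting strand are not given in the sources used here. FPKM hold no read counts, so depth is unknown and no counting interval can be given. From the deposited FPKM, log2(FPKM + 1) was fitted with limma 3.58.1 in R 4.3.3 over all 8 libraries with a mean-variance trend, for genes with at least 1 FPKM in at least 2 libraries, and p-values were adjusted by Benjamini-Hochberg over 12515 genes. The alternative used beside it throughout scales libraries by a trimmed mean of ratios (trims 0.3 and 0.05). The procedure was run on simulated data in which few genes were shifted and no general shift was set. The simulation therefore does not bear on the choice of scaling.

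The genes and the gene lists were chosen with earlier results of these data known, so a list's direction is a description. Genes were named by fixed rules: markers chosen as anchors, up to 6 members of each list with the largest changes called in both fits, at least 10 FPKM and no overlap, the 15 largest rises and falls, the highest levels, genes listed at 0 in 1 group, genes whose 2 libraries differed most, and members described by role. Sequences and transcript properties came from RefSeq GRCm38.p6 and GENCODE by symbol, and no coordinates of the deposited table were used. Alternatives tried were quantile normalization, removal of Rn45s and Malat1, another pseudocount, other filters, a fit of the 4 libraries, a replicate block, a fold threshold and leaving out each library.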

Additional observations from a re-analysis of the deposited data

How the results depend on the processing

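As deposited, 2116 genes were higher and 5688 lower in the PBS-perfused libraries, with a median log2 fold change of -0.56. Trimmed mean scaling gave 3496 higher and 3176 lower and a median of -0.03, and quantile normalization gave 3046, 4080 and -0.20. With a pseudocount of 0.1 the median was -0.66, and requiring an absolute log2 fold change of at least 1 left 1498 higher and 3725 lower. Leaving out 1 library at a time gave 1679 to 2141 higher calls, 4615 to 5276 lower calls and medians of -0.61 to -0.51, where a group left with 1 library takes its spread from the rest. The filters, the fit of the 4 libraries alone and the removal of Rn45s and Malat1 kept both counts within 1.5 times. Replicate numbers are shared between groups, but the deviations of same-numbered PFA-perfused and PBS-perfused libraries correlated at only 0.119 and with 2 pairs the numbers were not taken to pair them. With the replicate number as a block, 2181 genes were higher and 5771 lower. The cause of these shifts was not tested. Depth is unknown, so how far it limits low genes could not be stated.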

Other observations

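Among members averaging 10 FPKM or more in a group, a few differed widely between its 2 libraries. In the PFA-perfused libraries the alpha globin gene Hba-a2 was at 37.9 FPKM in replicate 1 and 0.172 in replicate 2, while muscle fibre and heart genes went the other way, with Actc1 at 1.73 and 23.9, Tnnt2 at 2.32 and 23.5 and Ttn, the giant sarcomere spring, at 2.23 and 20.7 FPKM. Lgals3, a macrophage lectin, followed the latter at 2.46 and 23.99 FPKM. Among the PBS-perfused libraries, the peptide transporter Slc15a2 was at 0.345 and 82.6 FPKM, the arrestin-domain protein Arrdc3 at 237 and 34.5, and Rrm2, the ribonucleotide reductase subunit of S phase, at 30.1 and 4.16.

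MicroRNA entries, 160 of which were members, did not share the general shift: 31.9% were called higher and 25.0% lower, with a median log2 fold change of 0.01 (0.44 after scaling). Entries annotated as processed transcripts lay at the other end, with 71.9% of 96 called lower (median -1.0, and -0.56 after scaling). Long intergenic noncoding RNA entries were lower in 57.5% of 73 cases. Small RNA entries in a polyA library hold reads of longer transcripts over the same bases, so these values do not measure the mature small RNAs.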
